A study of Homo sapiens with 24 samples.

Results

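The genes described are the MYC family of transcription factors, their obligate partner and their antagonists: MYC, MYCN, MYCL, MAX, MXD1, MXD3, MXD4, MXI1, MNT and MGA. They were taken by name as those rows of the count table whose Ensembl identifier maps to one of these symbols, and all 10 were found among 58676 gene identifiers. RNA came from HSJD-DIPG-007, an established patient-derived cell line of diffuse midline glioma, a childhood tumour of the brain, which was grown as spheroids. The cells were given LLY-283, an inhibitor of the arginine methyltransferase PRMT5, once at the GI40 dose, or vehicle, and the methods add that the medium with its compound was renewed after day 5. Each arm has 12 libraries: 3 at day 0, 1 at each of days 1, 2 and 3, 3 at day 5, 2 at day 7 and 1 at day 10. Every library, vehicle and treated alike, carries the genotype given as H3F3A K27M, ACVR1 R206H and PIK3CA MIS. The libraries of an arm and day are described as technical repeats of 1 line. The p-values below therefore measure the spread between such repeats. Those of days 1 to 3, without repeats, measure the spread of the arm difference between days.

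MYC proteins bind DNA as a pair with MAX, most often at the E-box CACGTG, and raise transcription of genes for ribosome production, nucleotide synthesis and cell growth. MXD1, MXD3, MXD4, MXI1 and MNT pair with MAX in place of MYC, bind the same E-box and recruit SIN3 and histone deacetylases, which lowers transcription. MGA is a further MAX partner that sits in a variant Polycomb complex, and MYC is among the best known drivers of growth in glioma and other tumours.

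Total counts lay between 13835205 and 23190369 per library. Levels are given as CPM, each gene's count scaled to a common library total, after TMM scaling. To check the labels, each library was placed on the treatment difference of day 5, with the family left out, on an axis from the vehicle mean of that day (0%) to its LLY-283 mean, in percent of the distance between them. At day 7 the vehicle libraries lay at -4.67% and 46.5%, and the LLY-283 libraries at 72.8% and -9.16% (repeats 1 and 2). LLY-283 repeat 2 thus lay near the vehicle mean. Vehicle repeat 2 lay between the means, so that the order of the arms was reversed in repeat 2. Libraries of day 0, in both arms, lay between 16.7% and 32.5%, so position on this axis also differs between days. The vehicle library of day 10 lay at 61.6%. The day 7 comparison is therefore given with and without the libraries labelled repeat 2, and the time course with and without day 7. Of the markers of the labelled cell type, NES, OLIG2, SOX2, OLIG1 and PDGFRA were present, while SOX10 was near 0, with group means between 0.1203 and 0.2584 CPM at days 0 and 5. The 5 microglial markers summed to between 0.12 and 0.885 CPM, with 2 to 4 of the 5 at 0 in each library, and the 5 endothelial markers to between 4.46 and 25.6 CPM.

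MYC was the most abundant member in all 4 groups of days 0 and 5, on the scale of CPM per kilobase of exon sequence, the only scale on which different genes are compared here. In vehicle at day 5 its level was 74.0 ± 2.54 CPM per kilobase (SD, n = 3). MXD4 followed at 9.73 ± 0.557 and MAX at 7.89 ± 0.221. MXI1 came next at 3.85 ± 0.187, then MGA at 2.59 ± 0.165 and MNT at 2.46 ± 0.132, whose ranges overlapped. MXD3 stood at 2.11 ± 0.134 CPM per kilobase, MXD1 at 1.88 ± 0.185 and MYCN at 0.819 ± 0.123. At day 0 in vehicle, MAX (7.67 ± 0.401) and MXD4 (7.62 ± 0.295) were not separated. With the longest transcript as length in place of all exons, MYC stayed at rank 1 and MYCN at rank 9 in all 4 groups. In vehicle at day 5, however, MXD3 moved from rank 7 to rank 5 and MGA from rank 5 to rank 7. On that length MXD4 (15.8 ± 0.905) and MAX (15.6 ± 0.438) were not separated in vehicle at day 5.

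**Figure D1:**
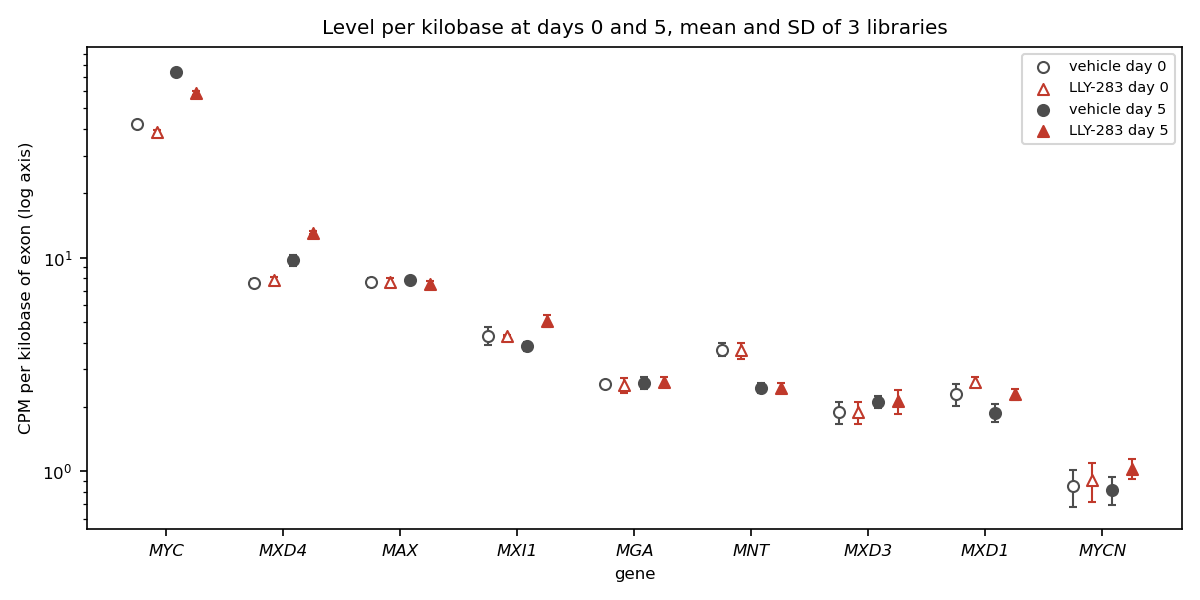
Level of 9 members at days 0 and 5 in CPM per kilobase of exon, on a log axis, with points for the mean and bars for the SD of 3 libraries, circles for vehicle and triangles for LLY-283, open at day 0 and filled at day 5. MYC stands above every other member in all 4 groups, and MXD4 is second at day 5.

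MYCL was close to undetected. It had 16 counts over the 24 libraries, at most 4 in 1 library, and 0 counts in 15 libraries, which allows a level of up to 0.144 to 0.217 CPM depending on the library. It did not pass the filter on low counts in any comparison and was not tested. The other 9 members passed it in every comparison.

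The sequences before the start of MXD4, MXI1 and MNT are shown because these are the antagonists whose RNA passed a test below, and the E-box is the site that the family itself binds. RefSeq (GRCh38.p14) gave a window of 300 bases around the start, 250 before and 50 after, for 9 of the 10 members, all but MYC. The E-box CACGTG, which reads the same on both strands, was in the windows of MXD4 and MNT and in 7.26% of all 35116 windows in the table. The first base of the E-box lies at -238 from the start in MXD4 and at -193 in MNT. Start here means the RefSeq start. GENCODE, another annotation, starts MNT at chr17:2401104, which lies before the RefSeq start and inside this window. For MGA and MXD3 too, the GENCODE start lies before the RefSeq start and inside the window. The windows of MAX, MXD1 and MYCL lie wholly inside the genes as GENCODE draws them. A window without CACGTG therefore speaks for its RefSeq start alone. The 250 bases before the start of MXD4 (chr4:2262110-2262359, minus strand), MXI1 (chr10:110207355-110207604, plus strand) and MNT (chr17:2401061-2401310, minus strand) are printed 5′ to 3′, with the E-box in capitals. MXI1 holds no CACGTG in this window.
MXD4: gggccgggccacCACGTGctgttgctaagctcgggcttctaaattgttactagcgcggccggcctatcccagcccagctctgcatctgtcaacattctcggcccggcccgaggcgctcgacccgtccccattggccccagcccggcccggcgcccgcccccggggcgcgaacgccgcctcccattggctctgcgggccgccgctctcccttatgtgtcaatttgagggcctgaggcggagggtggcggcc
MXI1: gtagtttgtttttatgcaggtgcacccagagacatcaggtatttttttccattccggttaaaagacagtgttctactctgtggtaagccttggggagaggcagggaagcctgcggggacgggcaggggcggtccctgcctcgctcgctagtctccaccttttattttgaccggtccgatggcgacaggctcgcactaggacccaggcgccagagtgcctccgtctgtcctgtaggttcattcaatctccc
MNT: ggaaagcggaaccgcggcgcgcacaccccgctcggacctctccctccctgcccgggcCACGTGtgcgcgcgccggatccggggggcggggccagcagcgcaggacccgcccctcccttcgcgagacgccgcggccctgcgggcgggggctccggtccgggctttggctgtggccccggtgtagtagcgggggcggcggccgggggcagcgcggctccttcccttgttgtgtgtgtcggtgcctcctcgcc

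In GENCODE on GRCh38, MYC spans chr8:127735434-127742951, MAX chr14:65006174-65102695, MXD4 chr4:2247432-2262109, MXI1 chr10:110207605-110287365 and MNT chr17:2384073-2401104. Exons of 5 members overlap those of a named gene on the other strand, which could share reads if strand was not used in counting: CASC11 for MYC, MYCNOS for MYCN, MYCL-AS1 for MYCL, FNTB for MAX and PRELID1 for MXD3. On the same strand, exons of MXD1 overlap SNRNP27, those of MXD3 RAB24 and those of MXD4 the microRNA gene MIR4800. The library kit keeps strand, and the strand setting of the counting is not given in the sources used here. CASC11 averaged 0.2819 ± 0.156 CPM and MYCNOS 0.3884 ± 0.147 CPM in vehicle at day 5 (SD, n = 3).

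The first comparison asks how PRMT5 inhibition altered the family at day 5, when both arms had 3 libraries. MYC was lower in LLY-283, and the antagonists MXD4 and MXI1 were higher, so that 3 of the 9 members tested passed the threshold of an adjusted p under 0.01. The same threshold was passed by 26.1% of the 16491 genes tested. MAX, MYCN, MXD1, MXD3, MNT and MGA did not pass it. Adjusted p-values are those of the quasi-likelihood test of edgeR after Benjamini-Hochberg adjustment over all genes tested.

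MYC stood at 462.9, 434.1 and 458.4 CPM in the vehicle libraries and at 368.5, 357.4 and 357.5 CPM in the LLY-283 libraries. The groups did not overlap, and every treated library was below every vehicle library. The log2 fold change was -0.33 (SE 0.034, 95% interval -0.4 to -0.26), a level of 0.794 times that of vehicle, with an adjusted p of 1.4e-08 by edgeR's quasi-likelihood test. Its paralogue MYCN, a neural and neuroblastoma-associated MYC, was at 1.908, 2.586 and 2.278 CPM in vehicle and at 3.194, 2.668 and 2.679 CPM in LLY-283. These ranges were also separate, but from 34 counts a library on average in vehicle the log2 fold change of 0.32 had an SE of 0.21 and an adjusted p of 0.26.

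MAX, the partner common to all these factors, was at 47.94, 49.45 and 50.70 CPM in vehicle and 48.62, 47.22 and 45.54 CPM with LLY-283. On this scale, set over all 24 libraries, the highest treated library lay above the lowest vehicle library, whereas scaling over the 6 libraries of day 5 alone separated the groups. The log2 fold change was -0.08 (SE 0.05, 95% interval -0.18 to 0.03) and the adjusted p was 0.26.

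MXD4, an antagonist of the MXD group, had an estimate close to that of MXI1. Its vehicle libraries stood at 64.62, 71.30 and 64.73 CPM and its LLY-283 libraries at 89.49, 91.35 and 88.25 CPM. Every treated library was above every vehicle library, with a log2 fold change of 0.41 (SE 0.046, 95% interval 0.32 to 0.51), 1.33 times vehicle, at an adjusted p of 5.2e-08 by edgeR's quasi-likelihood test. MXI1 stood at 21.60, 22.82 and 23.81 CPM in vehicle against 31.41, 30.68 and 27.85 CPM in LLY-283. These groups did not overlap either, and the log2 fold change was 0.39 (SE 0.067, 95% interval 0.25 to 0.53), 1.31 times vehicle, with an adjusted p of 3.3e-05 in the same test. In a shared fit of 22 libraries MXD4 lost its call, with a log2 fold change of 0.39 and an adjusted p of 0.012.

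MXD1, a MAX partner that rises as many cells differentiate, was at 12.62, 10.60 and 12.64 CPM in vehicle and at 13.78, 15.47 and 14.40 CPM in LLY-283. The ranges were separate, but the log2 fold change of 0.28 (SE 0.095) had an adjusted p of 0.022, above the threshold. MXD3 (0.01, SE 0.11), MNT (0, SE 0.074) and MGA (0, SE 0.053) showed log2 fold changes near 0 with overlapping groups, and the widest of their 95% intervals, that of MXD3, ran from -0.22 to 0.24.

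**Figure D2:**
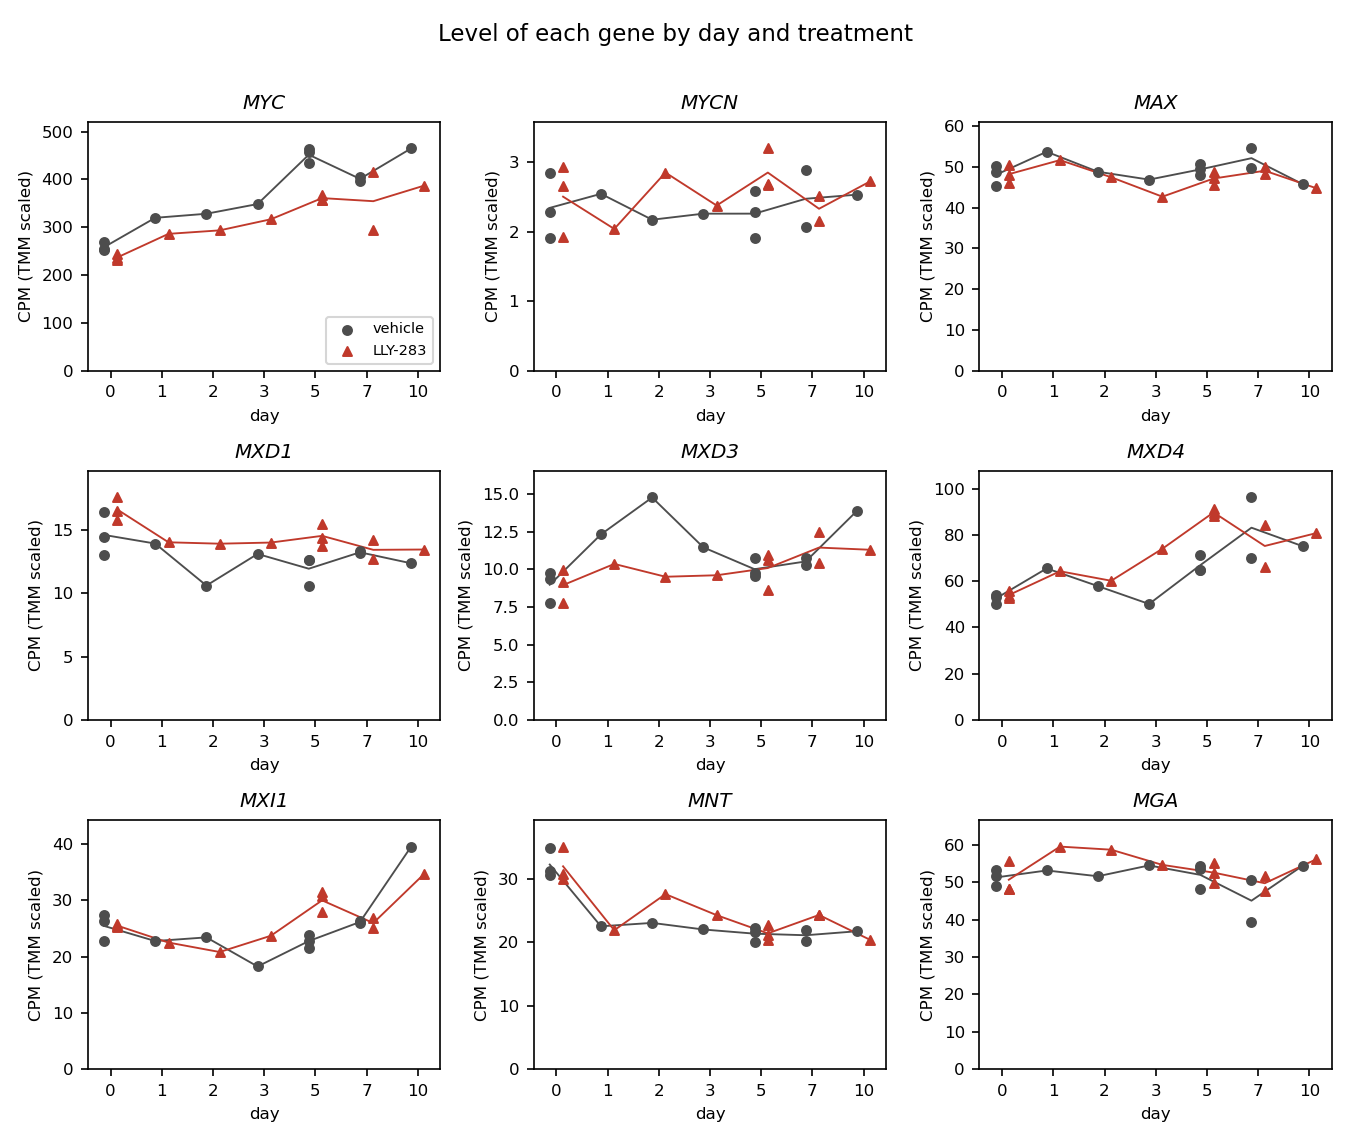
CPM after TMM scaling on the y axis, which starts at 0, against day in order of sampling on the x axis (spacing not to scale), 1 panel per gene. Each point is 1 library, circles for vehicle and triangles for LLY-283, and lines join the daily means by label. At day 5 the LLY-283 points lie below vehicle for MYC and above it for MXD4 and MXI1, and at day 7 the repeats lie far apart for MXD4 in both arms and for MYC in LLY-283.

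With the day 5 libraries scaled by themselves, 6 of the 9 members had separate ranges, as did 46.1% of all genes tested: MYC and MAX were lower, and MYCN, MXD1, MXD4 and MXI1 were higher. In bulk RNA, fewer cells with a transcript and less of it per cell cannot be told apart. Of markers of other cell types, 2 of the 4 neuronal markers tested, SYT1 and GAD1, were also higher in LLY-283. The 5 neuronal markers summed to between 105 and 111 CPM in the vehicle libraries and to between 155 and 170 CPM in the LLY-283 libraries of day 5, and their part in the family's differences was not tested. Of 7 fibroblast markers tested, LUM (0.44, SE 0.068) and THY1 (0.22, SE 0.037) were called higher in LLY-283 and 0 lower, with a median log2 fold change of -0.78 over the 7, and their part was not tested. The 8 fibroblast markers summed to 331 CPM in 1 vehicle library, repeat 3, against 177 and 184 CPM in the others and 206 to 223 CPM in LLY-283. Without that library, MYC had a log2 fold change of -0.33, MXD4 of 0.38 and MXI1 of 0.41. All 3 passed the threshold, beside 20.8% of the 17237 genes tested. Leaving out that library does not test the part of these markers.

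Day 0 gives the background of the comparison, with 3 libraries of each arm taken at the start. None of the 9 members passed the threshold, and of all 17780 genes tested 0.0169% did. At an unadjusted p under 0.05, MYC and MXD1 passed, as did 5.69% of all genes. MYC was at 252.1, 254.1 and 269.4 CPM in the libraries labelled vehicle and at 243.6, 232.3 and 235.5 CPM in those labelled LLY-283. The groups were already separate at the start, with a log2 fold change of -0.13 (SE 0.033, unadjusted p 7e-04, adjusted p 0.34 by edgeR's quasi-likelihood test), which was rank 36 of all genes by p. MYC was the only member with separate ranges at day 0, as 11% of genes were. MXD4 (0.04, SE 0.046) and MXI1 (0, SE 0.064) had log2 fold changes near 0.

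The second question is how the family moved with time in culture in each arm. From day 0 to day 5 MYC rose in vehicle from 258.5 ± 9.47 to 451.8 ± 15.5 CPM (SD, n = 3), 1.76 times. MXD4 rose from 52.40 ± 2.02 to 66.88 ± 3.83 CPM and MNT fell from 32.28 ± 2.23 to 21.37 ± 1.15 CPM. The log2 fold changes were 0.82 for MYC (SE 0.037, adjusted p 1.6e-16), 0.36 for MXD4 (SE 0.051, adjusted p 1e-06) and -0.58 for MNT (SE 0.069, adjusted p 4.7e-08), by edgeR's quasi-likelihood test. These 3 of 9 members passed the threshold, beside 38.9% of the 17106 genes tested. MXD1, with a log2 fold change of -0.28 and an adjusted p of 0.018, did not pass it. It passed without vehicle day 0 repeat 1 (-0.36), with library size alone as scaling (-0.34) and with at least 10 counts required in every library (-0.31). Ranges were separate for these 4 members, as for 56.8% of all genes.

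With LLY-283, MYC rose from 237.1 ± 5.8 to 361.1 ± 6.39 CPM (SD, n = 3), 1.52 times, and MXD4 from 53.97 ± 1.68 to 89.70 ± 1.56 CPM, 1.66 times. MXI1 rose from 25.48 ± 0.287 to 29.98 ± 1.88 CPM, whereas in vehicle it went from 25.44 ± 2.4 to 22.74 ± 1.1 CPM with an adjusted p of 0.078. MNT fell from 32.00 ± 2.72 to 21.42 ± 1.19 CPM. The log2 fold changes in this arm were 0.61 for MYC (SE 0.031), 0.73 for MXD4 (SE 0.041), 0.24 for MXI1 (SE 0.059) and -0.58 for MNT (SE 0.068). The adjusted p was 3.4e-14, 1.5e-13, 0.0015 and 1.2e-07 in that order by edgeR's quasi-likelihood test. Thus 4 of 9 members passed the threshold, beside 42.4% of the 17341 genes tested. When either of the first repeats of LLY-283 at day 5 was left out (repeat 1 or 2), MXI1 had an adjusted p of 0.011 and lost its call. It was also lost with DESeq2 (0.22, adjusted p 0.025) and in a shared fit of 22 libraries (0.22, adjusted p 0.022). Ranges were separate for 5 members, these 4 and MXD1, which was lower at day 5, as for 56.9% of all genes.

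Whether the change over time differed between arms was tested as the interaction of treatment and day over the 12 libraries of days 0 and 5. MYC rose less with LLY-283 than with vehicle, a difference of -0.2 between the log2 changes (SE 0.048, adjusted p 0.0028 by edgeR's quasi-likelihood test). MXD4 rose more, with a difference of 0.38 (SE 0.066, adjusted p 8.6e-05), and MXI1 differed by 0.4 (SE 0.094, adjusted p 0.0024). These 3 of 9 members passed, as did 14.9% of the 18369 genes tested, 6.78% above 0 and 8.15% below. For MNT, with the same log2 fold change of -0.58 in both arms, the difference was 0.02 with a 95% interval of -0.19 to 0.22. Without vehicle day 5 repeat 1 MXD4 alone passed, beside 11.5% of 19030 genes, and MYC (adjusted p 0.012) and MXI1 (0.014) did not. MYC also lost the call when LLY-283 repeat 1 of day 0 (0.013) or repeat 2 of day 5 (0.011) was left out, and MXI1 without vehicle day 0 repeat 2 (0.021). With DESeq2 2 members passed, beside 12.8% of all genes, and MXI1 did not (0.37, adjusted p 0.016). In a shared fit of the 22 libraries of days 0 to 7, 0 of the 9 members passed, beside 0.246% of 20756 genes. The adjusted p by edgeR's quasi-likelihood test was 0.2 for MYC, 0.15 for MXD4 and 0.04 for MXI1. That fit includes the day 7 libraries labelled repeat 2. A shared fit of the 18 libraries of days 0 to 5, chosen after seeing the data, called MYC, MXD4 and MXI1, beside 13.4% of genes.

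**Figure D3:**
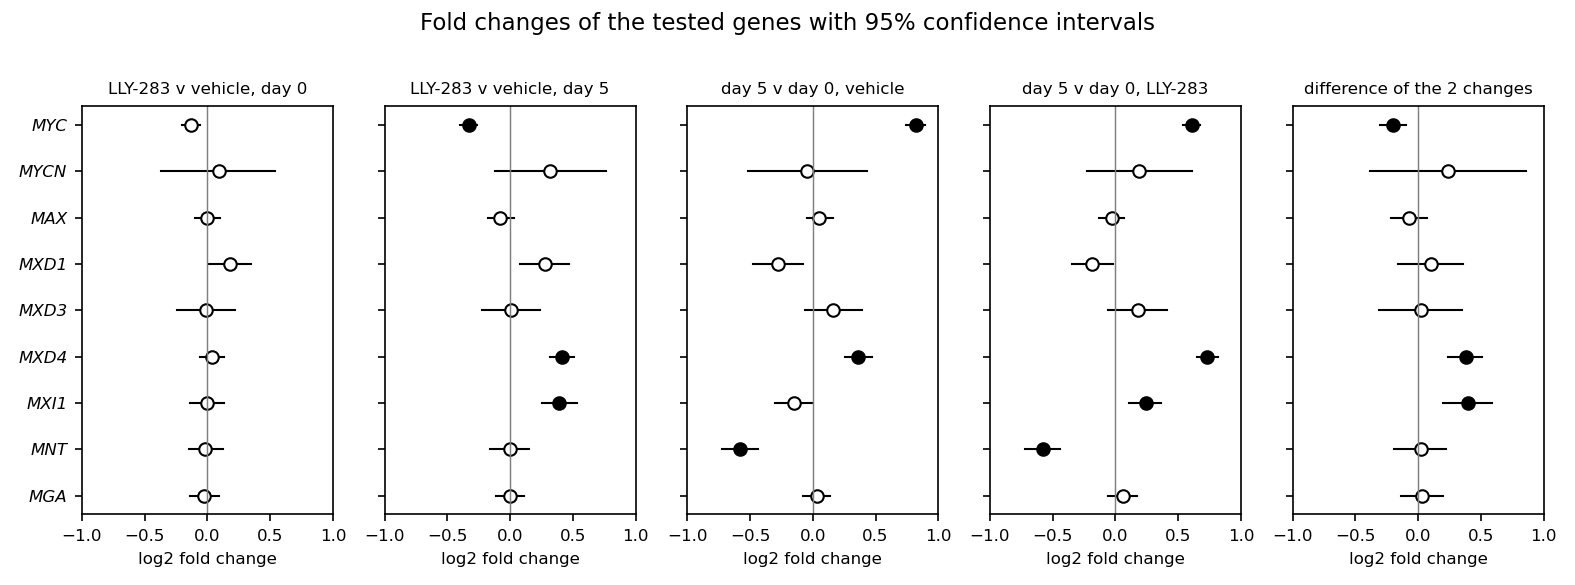
Log2 fold changes (x axis) of the 9 tested members with 95% confidence intervals as bars, in 5 comparisons, with filled points for an adjusted p under 0.01. MNT moves left with time by the same amount in both arms, MYC moves right in both and less with LLY-283, and MXD4 and MXI1 are filled on the right in the last panel.

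Days 1, 2 and 3 have 1 library an arm, and the shift common to them was tested with day as a term. The spread of that shift between days served as the error. None of the 9 members passed, nor did more than 0.0104% of 19179 genes, although 15.7% of genes had an unadjusted p under 0.05. MYC was lower with LLY-283 on each of the 3 days, at 286.4 against 319.9, 293.7 against 328.4 and 316.9 against 348.7 CPM. These levels were 0.895, 0.894 and 0.909 times vehicle, where the LLY-283 label already stood at 0.917 times vehicle at day 0. An early shift of MYC with treatment therefore cannot be told from this starting gap. The log2 fold change over the 3 days was -0.15 (SE 0.046, unadjusted p 0.0073, adjusted p 0.18 by edgeR's quasi-likelihood test), and without day 3 it was -0.14 and passed with an adjusted p of 0.0037, beside 2.18% of genes. MXD3, which is linked to proliferating cells, was also lower on each day, at 10.360 against 12.320, 9.509 against 14.770 and 9.608 against 11.460 CPM (log2 fold change -0.38, SE 0.11, adjusted p 0.16). MXD4 differed little at day 1 (64.26 against 65.49 CPM in vehicle) and day 2 (60.15 against 57.85 CPM), and at day 3 stood at 73.99 against 50.12 CPM. MXI1 was above vehicle at day 3 alone, at 22.48 against 22.75, 20.80 against 23.40 and 23.69 against 18.23 CPM. MNT was at or below 27.61 CPM in all 6 libraries of these days, against 30.04 CPM or more in each of the 6 libraries of day 0.

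At day 7, taken by label, none of the 9 members passed, nor did any of 16826 genes. At an unadjusted p under 0.05 there were 236 genes (1.4%), no member among them, and DESeq2 called 3 genes. MYC was at 405.8 and 396.9 CPM in the vehicle libraries and at 293.7 and 415.6 CPM in the LLY-283 libraries, repeats 1 and 2 in that order. MXD4 was at 70.04 and 96.13 CPM in vehicle and at 84.32 and 66.04 CPM in LLY-283. For both genes repeat 1 kept the order seen at day 5 and repeat 2 had the reverse. A fit of days 0 to 7 without the libraries labelled repeat 2 left 1 library an arm at day 7. There MYC was lower by a log2 fold change of -0.44, and MXD4 had 0.29. The pair kept lay closer to the day 5 means of its labels, so this fit does not test that difference anew. MXI1 stood at 25.89 and 26.38 CPM in vehicle and at 26.91 and 24.99 CPM in LLY-283, close together in all 4 libraries. MNT alone had separate ranges, at 21.99 and 20.25 CPM in vehicle and 24.34 and 24.30 CPM in LLY-283, as 25.4% of genes did.

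Day 10 had 1 library an arm and no test. MYC stood at 465.0 CPM with vehicle and at 387.4 CPM with LLY-283. MXD4 was at 75.09 and 80.71 CPM. MXI1 reached 39.53 CPM in vehicle, its highest value in any library, and 34.73 CPM in LLY-283, so that its order was the reverse of day 5.

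Over days 0 to 7 as a whole, the test of all treatment by day terms called 0 of 9 members and 0.0289% of 20756 genes, with 15.3% of genes at an unadjusted p under 0.05. The adjusted p was 0.15 for MXI1, 0.26 for MXD4 and 0.72 for MYC. Without the 4 day 7 libraries MXD4 (adjusted p 7.1e-05) and MXI1 (0.0067) passed, beside 9.61% of genes. A fit without only the day 7 libraries labelled repeat 2 keeps a pair that lay closer to the day 5 means of its labels. Its calls are therefore not a separate test and are not given.

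Most listed genes that MYC is known to activate were lower with LLY-283 at day 5. This list and those below were chosen with earlier results of these data known. Their counts are therefore not independent support, and a part of MYC in them was not tested. Of 26 listed genes, 24 fell and 0 rose at an adjusted p under 0.01, where 14.1% of all genes fell. Their median log2 fold change was -0.27, against 0.02 over all genes tested. ODC1, the first enzyme of polyamine synthesis, was at 291.5 ± 12.2 CPM in vehicle and 205.0 ± 11.8 CPM in LLY-283 (log2 fold change -0.52, SE 0.039). GNL3, the nucleolar protein nucleostemin, was at 240.9 ± 7.54 and 176.3 ± 2.9 CPM in the same order. RCC1, the exchange factor of the RAN GTPase, was at 132.6 ± 4.35 and 98.47 ± 1.74 CPM. HSPE1, a mitochondrial chaperonin, was at 307.4 ± 8.65 and 238.8 ± 6.13 CPM (SD, n = 3 in each group). The 2 genes that did not pass were TFAP4 (-0.20) and CCND2 (0.01). At day 0 none of the 26 passed and their median was 0.02.

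Over time in culture most genes of this list that passed the test fell, while MYC rose. In vehicle, where MYC rose 1.76 times from day 0 to day 5, 3 of the 26 genes rose and 13 fell, beside 22.2% of all genes that rose and 16.7% that fell, with a median log2 fold change of -0.12 against -0.02 over all genes. With LLY-283, where MYC rose 1.52 times, 1 rose (POLR1B, 0.15) and 24 fell, with a median of -0.41 against 0.01, while 22.9% of all genes rose and 19.5% fell. ODC1 fell by 0.37 on the log2 scale in vehicle and by 0.91 in LLY-283. The interaction of treatment and day was below 0 and passed for 22 of the 26 and above 0 for 0, beside 8.15% of all genes below 0. In the shared fit of 22 libraries 2 of the 26 passed for the interaction (median -0.34), beside 0.246% of all genes in either direction. In that fit 19 were lower at day 5, where 9.84% of all genes passed in either direction. A shared fit of the 18 libraries of days 0 to 5, chosen after seeing the data, leaves out day 7. There 22 were below 0 for the interaction and 24 lower at day 5, beside 13.4% and 20.4% of all genes in either direction.

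Of 10 genes known to be repressed by MYC, 4 were higher and 1 was lower with LLY-283 than with vehicle at day 5. Their median log2 fold change was 0.23. Of all genes, 12% were higher and 14.1% lower. In a shared fit of 22 libraries 1 was higher and 1 lower, where 9.84% of all genes passed in either direction. The shared fit of the 18 libraries of days 0 to 5 gave 3 higher and 1 lower, beside 20.4% of all genes in either direction. CDKN1A, the cell cycle inhibitor p21, was at 164.1 ± 2.53 CPM in vehicle and 233.5 ± 10.2 CPM in LLY-283 (log2 fold change 0.50, SE 0.036) and CDKN2B, the inhibitor p15, at 8.476 ± 0.89 and 12.46 ± 0.648 CPM (SD, n = 3). CEBPA was lower (-0.47, SE 0.096). TXNIP (0.33, SE 0.043) and GADD45A (0.19, SE 0.046) were also higher at day 5, but their log2 fold changes between the arms at day 0 were already 0.27 (SE 0.043, adjusted p 0.017) and 0.19 (SE 0.046, adjusted p 0.29) by edgeR's quasi-likelihood test. None of the 10 passed at day 0, where 9 were above 0 and the median was 0.08 against 0 over all genes. For the interaction of treatment and day 3 passed above 0 and 1 below, beside 6.78% and 8.15% of all genes. The median was 0.02 against 0.04 over all genes. TXNIP (0.07) and GADD45A (-0.01) did not pass it. In the shared fit of 22 libraries 0 of the 10 passed, beside 0.246% of all genes in either direction. In that of 18 libraries 2 passed above 0 and 1 below, beside 13.4% of all genes in either direction. Over time in vehicle 3 of the 10 rose and 3 fell, beside 22.2% of all genes that rose and 16.7% that fell. With LLY-283 3 rose and 4 fell, beside 22.9% and 19.5% of all genes. CDKN1A fell from 379.5 ± 15.0 to 164.1 ± 2.53 CPM in vehicle and from 383.4 ± 5.01 to 233.5 ± 10.2 CPM in LLY-283. The comparisons of day 5 between arms and of day 5 with day 0 share the day 5 libraries, so that their values are not independent.

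**Figure D4:**
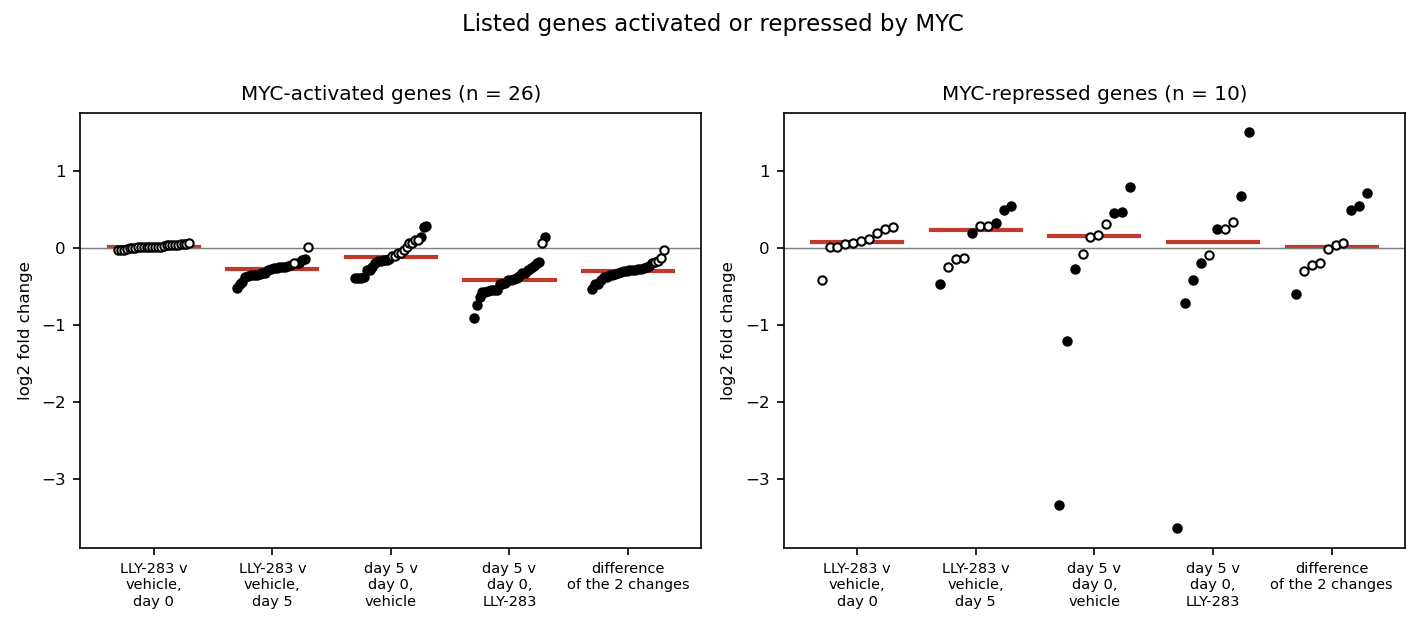
Log2 fold change (y axis) of listed genes known to be activated (left) or repressed (right) by MYC, in the 5 comparisons on the x axis. Each point is 1 gene, filled at an adjusted p under 0.01, and the red bar is the median. The activated genes lie around 0 at day 0, and their medians are -0.27 at day 5 and -0.41 over time with LLY-283.

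Genes that work beside the family were counted in the same way at day 5, where 12% of all genes were higher and 14.1% lower with LLY-283. In this paragraph fell and rose mean lower or higher with LLY-283 than with vehicle at day 5, not a change over time. In the related MLX branch, which shares the E-box and senses glucose, 2 of 5 genes were higher with LLY-283: TXNIP, a glucose-responsive target that differed by 0.27 at day 0 already, and MLXIP (also called MondoA), a partner of MLX, with a log2 fold change of 0.24 (SE 0.041) at day 5 and 0.01 at day 0. MLX itself had -0.02. Of 12 cofactors through which MYC activates genes, 4 fell and 0 rose: WDR5 (-0.26), the helicases RUVBL1 (-0.24) and RUVBL2 (-0.19), and CDK9 (-0.23), the kinase of the elongation factor P-TEFb. Of 8 corepressor genes used by the MXD proteins and MNT, 4 fell and 0 rose: RBBP7 (-0.19), HDAC2 (-0.21), SAP30 (-0.30) and SIN3A (-0.19). Of 9 genes of the MGA complex, 4 fell and 0 rose, with PCGF6 at -0.48 (SE 0.079) and TFDP1 at -0.40 (SE 0.038), CBX3 at -0.18 and E2F6 at -0.23. Of 12 genes that set the stability of the MYC protein, 5 fell and 1 rose. SKP2, a ubiquitin ligase subunit, had -0.44 (SE 0.04), CIP2A, an inhibitor of the phosphatase PP2A, -0.45 (SE 0.048), and AURKA, a mitotic kinase, -0.27 (SE 0.042), while FBXW7, the ligase subunit that marks phosphorylated MYC for degradation, rose by 0.21 (SE 0.047). The medians of these lists lay between -0.16 for the corepressors and 0.19 for the MLX branch, against 0.02 over all genes.

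Of 6 listed transcripts that neighbour MYC, MYCN, MYCL or MAX in the genome, MAX-AS1 was not matched to a gene identifier and was not measured. Of the others only PVT1, the long RNA gene next to MYC, passed the filter at day 5. Its mean was 6.965 ± 0.27 CPM for vehicle and 8.63 ± 1.11 CPM for LLY-283 (SD, n = 3). The log2 fold change was 0.31 (SE 0.12) with an adjusted p of 0.056 by edgeR's quasi-likelihood test. MYC itself was lower in the same libraries.

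The genes whose levels ran most like those of MYC over the 24 libraries, by Pearson correlation of log2(CPM + 1) among 20808 genes, were ZNF217 (0.961), RARG (0.96) and JAG2 (0.958). For MYCN they were DHRSX (0.718), CAMTA1-DT (0.688) and BMS1P9 (0.684), for MAX AP2S1 (0.847), VPS18 (0.84) and SMU1 (0.839), and for MXI1 RFFL (0.951), RASSF8 (0.901) and IFIT3 (0.9). The libraries share the line and the time course, so that any gene that moved with culture time scores high, and these values describe the libraries only. Over all 24 libraries MYC ranged from 232.3 to 465.0 CPM and MNT from 20.1 to 35.11 CPM, whereas MAX stayed between 42.68 and 54.51 CPM.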

How the data were processed

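RNA of 24 libraries was sequenced in pairs after poly(A) selection with a kit that keeps strand. The deposited table holds estimated counts per Ensembl gene, which the authors made with kallisto on the hg38 transcriptome (version, annotation and strand setting are not given in the sources used here). The counts were rounded to whole numbers. Symbols came from GENCODE on GRCh38. Genes were filtered with filterByExpr, scaled by TMM and tested with edgeR's quasi-likelihood test (glmQLFit with robust estimation, glmQLFTest) in R 4.3.3 (edgeR 4.0.16), with Benjamini-Hochberg adjustment over all genes and a call at an adjusted p under 0.01. Each comparison was fitted on its own groups. DESeq2 1.42.0, other scalings, filters, fits and omitted libraries were tried as alternatives. The code was tested on simulated data. Precision is limited by 1 to 3 libraries a group, and counting limits cover counting error only. All members and every gene of a list are counted, and up to 4 genes a list are named by smallest p among those called at day 5. GADD45A, TFAP4, CCND2, POLR1B, MLX and PVT1 fall outside that rule and were chosen after their values were seen. The 3 genes most like a member are named for MYC, MYCN, MAX and MXI1. The members and lists were chosen with earlier results of these data known.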

Additional observations from a re-analysis of the deposited data

Results flagged for a closer look

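The effect of LLY-283 differed between day 5 and day 0 for 3 members by the test of the interaction itself (edgeR's quasi-likelihood test, 12 libraries), beside 14.9% of all genes. On the log2 scale the difference was -0.2 for MYC (adjusted p 0.0028), 0.38 for MXD4 (adjusted p 8.6e-05) and 0.4 for MXI1 (adjusted p 0.0024). For MYC the treated libraries were already below vehicle at day 0, by a log2 fold change of -0.13 with an adjusted p of 0.34, against -0.33 at day 5. For MXD4 and MXI1 the day 0 values were 0.04 and 0.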

How the results depend on the processing

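Over 1160 values of single members under alternatives, 1132 kept their side of the threshold, 14 lost a call and 14 gained one. No called value changed sign, while 92 values that were not called did. The 1160 include results not called in the main fit, which had no call to lose. For the interaction of treatment and day, MYC and MXI1 each lost the call in 4 of 21 alternatives and MXD4 in 1 of 21. MXI1 over time in LLY-283 lost it in 4 of 15, and MXD4 between arms at day 5 in 1 of 15. MXD1 over time in vehicle gained a call in 4 of 15, among them the looser threshold of 0.05. At day 5, 3 members passed in every fit that left out 1 library, beside 19% to 26.1% of all genes. In a shared fit of 22 libraries (days 0 to 7) 2 passed, and MXD4 had 0.39 with an adjusted p of 0.012. That shared fit called 9.84% of all genes at day 5. For the interaction of treatment and day it called 0 members (adjusted p 0.2 for MYC, 0.15 for MXD4 and 0.04 for MXI1) and 51 of 20756 genes (0.246%). A shared fit of the 18 libraries of days 0 to 5, chosen after seeing the data, gave 3 members at day 5 and 3 for the interaction. It called 20.4% and 13.4% of all genes in that order. Leaving out 1 library gave 1 to 3 members for the interaction, beside 11.2% to 15.8% of all genes. For the time course of days 0 to 7, leaving out 1 library of day 0 or day 5 gave 0 members, beside 0% to 0.029%. Fits that left 1 day 7 library in an arm are not counted in that. The time course gave 1 member with no filter on low counts (2.81% of all genes) and 2 without the day 7 libraries (9.61%). Days 1 to 3 without day 3 gave 1, beside 2.18% of all genes. The cause was not tested. Fits that omit both day 7 libraries labelled repeat 2 were chosen after seeing the data. Their calls are included in the 14 gained above, but are not listed here. Same-numbered libraries of days 0 and 5 had deviations correlated between -0.0692 and 0.0728, so the numbers were not taken as pairs. With a replicate block 3 members passed at day 5 (26.7% of all genes) and 3 in vehicle over time (37.9%). The block gave 4 in LLY-283 over time (45.7% of all genes) and 3 for the interaction (13.3%). It gave 0 for the time course (0.00482%), day 0 (0.0337%) and day 7 (0%). Crossed numbers at day 7, chosen after seeing the data, called 36 genes and 0 members. Depth limits MYCN and MYCL.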
